A study of Mus musculus with 16 samples.

Results

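The cytosolic ribosomal protein genes are the genes for the proteins of the large and the small ribosomal subunit. They were taken by symbol, as every gene whose symbol begins with Rpl or Rps and a digit, together with Rplp0, Rplp1, Rplp2 and Rpsa. The S6 kinase genes (Rps6k) and symbols marked as pseudogenes (-ps) were left out. This rule was met by 88 genes of each table, and those with a mean of at least 0.5 FPKM (fragments scaled to transcript length and to the mapped fragments of the library) were kept. That left 86 of 17361 genes in the cKO and Flox table, 52 of the large and 34 of the small subunit, and 85 of 17318 genes in the Ctrl and OE table, 51 of the large and 34 of the small subunit. Rpl3l and Rps23rg1 fell below the minimum in both tables, with means of 0.00434 and 0.104 FPKM in the first and 0.0291 and 0.0629 FPKM in the second. Rpl32l lay nearest to it, inside at 0.842 FPKM in the first table and outside at 0.357 FPKM in the second.

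The ribosome translates every mRNA of the cell. Its proteins are encoded by separate genes scattered over the genome, are made in nearly equal numbers and assemble with ribosomal RNA in the nucleolus. β cells and acinar cells both devote most of their translation to secreted proteins, insulin in the former and digestive enzymes in the latter. Many ribosomal protein mRNAs begin with a run of pyrimidines, the terminal oligopyrimidine tract, through which mTORC1 signalling controls their translation. Rps19bp1 met the symbol rule but is known as a protein that binds Rps19 in the nucleolus and is no part of the mature ribosome.

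The 16 libraries were made from handpicked pancreatic islets of mice, 4 in each of 4 groups. Flox mice are B7-H4 fl/fl, with exon 2 of Vtcn1 (the gene of B7-H4) between loxP sites on a C57BL/6J background, and carry no Cre. The cKO mice carry in addition Cre under the rat insulin II promoter (Rip-Cre), and both groups ate a normal chow diet. No mice with Cre alone were sequenced, so Cre and the deletion cannot be told apart, and this Cre line is known to act in some hypothalamic neurons as well as in β cells. The Ctrl and OE libraries came from mice that started a high-fat diet at 6 weeks of age, ate it for 8 weeks and then received a virus into the pancreatic duct, AAV2/8-Ctrl or AAV2/8-Ins2-B7-H4, in which a rat insulin promoter drives B7-H4. Their islets were taken 5 weeks after the infusion. These mice are called wild type in the series description and Flox in the study's methods. The labels give no ages for the chow-fed mice and do not say whether the libraries of a group came from separate animals, so p-values measure only the spread between these libraries. They name no batch.

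Read totals are not given, and relative depths read from the steps between low values ran from 0.942 to 1.07 in the cKO and Flox table and from 0.840 to 1.08 in the Ctrl and OE table. Vtcn1 stood at 40.01 to 128 FPKM in the OE libraries and at 0.0636 to 0.371 FPKM in the Ctrl libraries, but at 0.0202 to 0.125 FPKM in cKO and 0.0188 to 0.216 FPKM in Flox, where the groups overlapped. The libraries differed in their content of acinar RNA. The acinar genes Prss2, Cpa1 and Cela2a, which encode a trypsinogen, a carboxypeptidase and an elastase, made up 10.8% to 13.4% of the summed FPKM in cKO, 2.30% to 10.02% in Flox, 3.57% to 4.48% in OE and 0.689% to 20.3% in Ctrl. This summed percentage is called the acinar share below. In Ctrl the 4 libraries stood far apart, with 0.689% in Ctrl5, 1.70% in Ctrl1, 16.8% in Ctrl2 and 20.3% in Ctrl3. Endothelial markers also spread more widely in Ctrl, from 0.00789% to 0.101%, than in OE, from 0.0262% to 0.0333%. Macrophage markers ran from 0.00408% to 0.0631% in Ctrl and from 0.00997% to 0.0130% in OE.

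The Rps27 genes are printed first because the results turn on them and because the sequences show which of their values can be told apart. The coding sequences below were read from the GENCODE M21 transcripts on GRCm38, from the first to the 90th coding base, and capitals mark bases that differ from Rps27.
Rps27: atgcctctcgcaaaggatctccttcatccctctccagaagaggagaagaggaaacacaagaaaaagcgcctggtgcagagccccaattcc
Rps27rt: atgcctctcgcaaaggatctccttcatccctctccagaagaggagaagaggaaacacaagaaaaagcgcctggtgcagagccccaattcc
Rps27l: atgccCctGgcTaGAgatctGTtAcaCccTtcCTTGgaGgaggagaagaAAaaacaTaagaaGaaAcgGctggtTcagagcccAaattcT
Rps27, a zinc-binding protein of the small subunit, lies on chromosome 3 (chr3:90212522-90213651, minus strand). Rps27rt is a copy on chromosome 9 (chr9:114982366-114982739, minus strand) that matched Rps27 at all 252 coding bases before the stop codon, and the transcripts of 345 and 374 bases shared an unbroken run of 341 bases. Reads from the pair can hardly be told apart, so the split of counts between them, and with it the values of Rps27rt, is uncertain. Rps27l, a paralogue known as a p53 target, lies on chromosome 9 (chr9:66946086-66949516, plus strand), differed from Rps27 at 60 of the 252 positions, and shared no run longer than 11 bases with it. Among the other paralogues, Rpl36a and Rpl36al were 87.7% identical over their coding sequence, Rpl22 and Rpl22l1 69.6%, and Rpl7 and Rpl7l1 57.6%.

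Promoter windows were taken from RefSeq on GRCm38.p6, each with 250 bases before and 50 from the annotated start, and 65 of the 86 members had one. In 22 of the 65 members (33.8%), at least 8 pyrimidines in a row lay between 10 bases before the start and 10 from it. The same held for 8.71% of all 27025 genes with a window. The ETS factor motif CCGGAAG, on either strand, was present in 25 members (38.5%) and 9.93% of all genes. The YY1 motif AAGATGGC was present in 6 members (9.23%) and 3.19% of all genes, and TATAAA in 8 members (12.3%) and 15.7% of all genes. These are matches of letters and no binding sites. The windows of members to which the results return are printed 5′ to 3′ from 60 bases before the start to 20 from it, with the longest pyrimidine run near the start in capitals where it is longer than 6 bases.
Rps27 (chr3:90213629-90213708, minus): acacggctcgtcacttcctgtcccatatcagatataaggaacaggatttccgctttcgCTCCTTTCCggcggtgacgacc
Rps27rt (chr9:114982720-114982799, minus): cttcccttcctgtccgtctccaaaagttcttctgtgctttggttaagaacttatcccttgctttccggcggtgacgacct
Rps27l (chr9:66946026-66946105, plus): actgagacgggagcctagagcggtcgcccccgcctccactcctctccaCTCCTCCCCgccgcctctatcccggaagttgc
Rplp2 (chr7:141447591-141447670, plus): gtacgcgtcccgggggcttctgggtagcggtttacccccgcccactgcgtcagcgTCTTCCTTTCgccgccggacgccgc
Rpl35 (chr2:39005112-39005191, minus): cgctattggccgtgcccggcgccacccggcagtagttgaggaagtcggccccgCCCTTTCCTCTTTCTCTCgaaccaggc
Rpl22l1 (chr3:28805448-28805527, plus): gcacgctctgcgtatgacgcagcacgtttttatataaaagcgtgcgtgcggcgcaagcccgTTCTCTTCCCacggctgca
Runs were searched from 20 bases before the start onward. The run had 18 bases in Rpl35, 10 in Rplp2 and Rpl22l1, and 9 in Rps27 and Rps27l. That of Rps27l ended before the annotated start. In Rps27rt the longest run in the searched stretch had 6 bases, and a longer one lay further upstream.

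Ribosomal protein genes were among the more abundant mRNAs of these islets. The median of their mean levels was 210.0 FPKM in the cKO and Flox table and 221 FPKM in the Ctrl and OE table, with 71 of 86 and 70 of 85 members above 100 FPKM. Rpl41, the gene of a very short basic peptide of the large subunit, was the highest in both, with means of 1005 and 1519 FPKM. Rplp1, part of the stalk that recruits elongation factors, followed with 783 and 749 FPKM, and Rpl10, which joins the large subunit late in its assembly, with 698 and 685 FPKM. The lowest members were mostly paralogues or copies, among them Rpl7l1 (14.5 and 10.1 FPKM), Rps27rt (14.2 and 16.7 FPKM), Rps27l (21.5 and 12.4 FPKM) and Rps19bp1 (7.19 and 7.05 FPKM). Rps15a, a core protein of the small subunit, was also low, at 19.2 and 20.05 FPKM.

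Summed over the members, ribosomal protein genes took 2.42% to 2.58% of the FPKM in cKO, 2.48% to 3.16% in Flox, 2.77% to 3.002% in OE and 2.20% to 4.09% in Ctrl. The lowest share, 2.20%, was that of Ctrl2 and Ctrl3, the libraries with the most acinar RNA, and the highest that of Ctrl5, with the least. With acinar markers left out of the sum the order turned, and the share was 3.94% to 4.63% in cKO against 3.23% to 4.08% in Flox, and 8.47% in Ctrl3 against 2.99% in Ctrl1. With the islet hormone genes left out as well, all 16 libraries lay between 8.03% and 10.4%, with 8.55% ± 0.332 (SD, n = 4) in cKO, 8.72% ± 0.224 (SD, n = 4) in Flox, 8.74% ± 0.172 (SD, n = 4) in OE and 9.47% ± 1.11 (SD, n = 4) in Ctrl. The difference between cKO and Flox was then smaller than the SD of either group, and that between OE and Ctrl smaller than the SD of Ctrl but not that of OE. In bulk libraries like these, fewer cells of a type and less RNA per cell cannot be told apart.

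**Figure D1:**
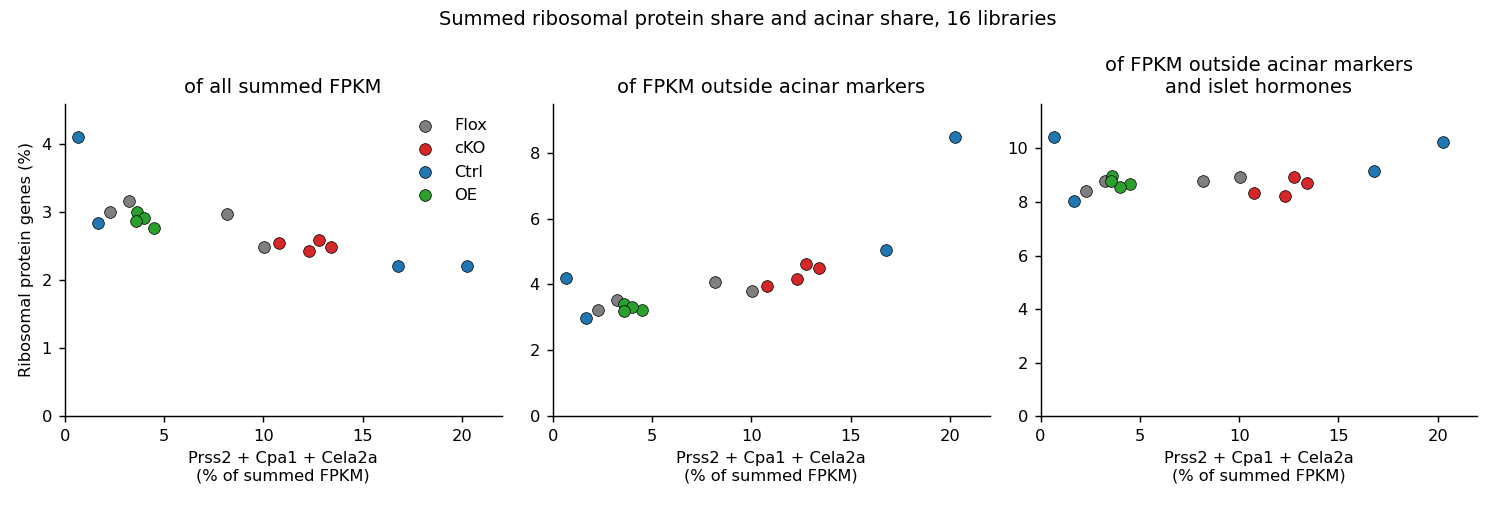
Share of the ribosomal protein genes (%, y axis) against the acinar share (% of the summed FPKM taken by Prss2, Cpa1 and Cela2a, x axis), 1 point per library, coloured by group, with the y share taken of all FPKM (left), outside acinar markers (middle), and outside acinar markers and islet hormones (right). In the left panel Ctrl5 stands alone at 4.09%, the other libraries lie between 3.16% and 2.20%, and the share is lowest in the 2 libraries with the highest acinar share. It lies between 8.03% and 10.4% in the right panel.

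The comparison of cKO with Flox islets asked what loss of B7-H4 in β cells does to islet mRNA. No ribosomal protein gene passed an adjusted p under 0.05 with an absolute log2 fold change over 1 (limma on log2(FPKM + 0.5)), against 0.339% of the 11804 genes tested that were called higher and 0.974% called lower. With the adjusted p alone, 0 of 86 members rose and 2 fell (2.33%), against 1.02% of all genes higher and 12.8% lower. Before adjustment, p was under 0.05 for 11 of the 86 members, all of them lower in cKO, and for 41.5% of all genes in either direction. The median log2 fold change of the members was -0.16 and that of all genes tested -0.34, and 84 of the 86 members lay above the median of all genes. After median-of-ratios scaling the median of all genes was 0.00, that of the members was 0.22, and no member passed, against 1.11% of all genes higher and 1.17% lower. Relative to the typical gene, the members thus stood 0.18 higher without and 0.22 higher with that scaling, but -0.16 from it with the acinar share as a covariate. The acinar shares of the cKO and the Flox libraries did not overlap, so this covariate and genotype cannot be told apart. Large and small subunit genes had medians of -0.16 and -0.17.

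**Figure D2:**
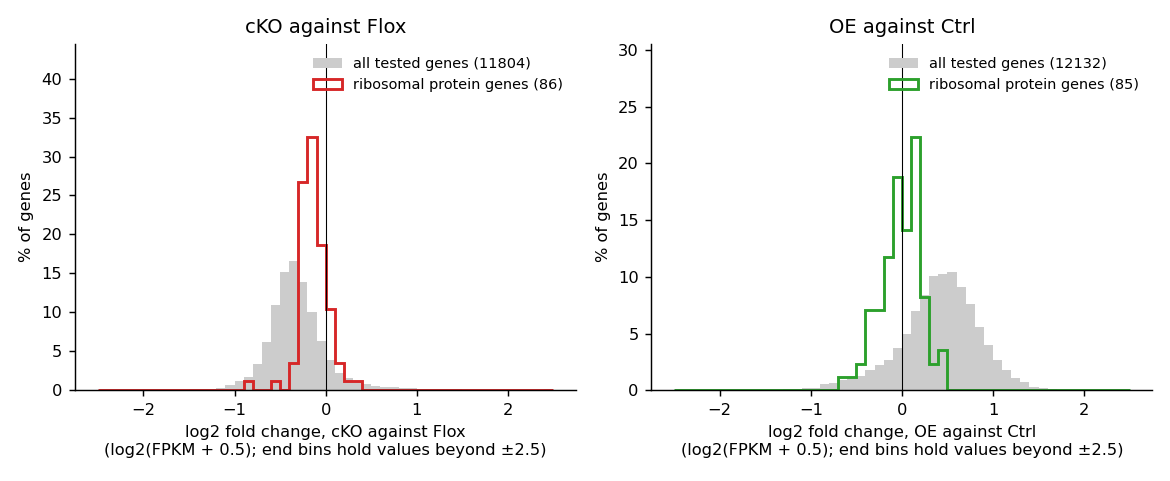
Distribution of log2 fold changes on the log2(FPKM + 0.5) scale (x axis) as a percentage of genes per bin of 0.1 (y axis), for cKO against Flox (left) and OE against Ctrl (right), with all tested genes in grey and the ribosomal protein genes outlined. The members' medians are -0.16 and 0.00, to the right of the median of all genes on the left (-0.34) and to its left on the right (0.44).

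The members that fell were Rps27 and its copy Rps27rt. Rps27 stood at 318, 296, 302 and 304 FPKM in cKO8, cKO9, cKO12 and cKO38 and at 433, 361, 542 and 492 FPKM in the Flox libraries numbered 16, 17, 20 and 21, so the groups did not overlap. On the log2 scale cKO lay below Flox by a difference of -0.57 ± 0.13 (standard error, limma adjusted p = 0.0182). Rps27rt stood at 8.97 to 10.8 FPKM in cKO and 15.9 to 22.6 FPKM in Flox, a difference of -0.86 ± 0.17 on that scale (standard error, limma adjusted p = 0.0141). Both had their higher Flox values in Flox20 and Flox21, the libraries with the lowest acinar shares (3.25% and 2.30%), and their lowest Flox value in Flox17 (10.02%). With the acinar share as a covariate Rps27 changed by -0.18 and Rps27rt by -0.59, and neither passed, nor did any of the 11804 genes in that fit. As every cKO library had a higher acinar share than every Flox library, acinar RNA and genotype cannot be told apart here. After median-of-ratios scaling the differences were -0.18 for Rps27 and -0.49 for Rps27rt (limma adjusted p = 0.276 and 0.0522). Rps27 also lost its call when cKO9, cKO38, Flox20 or Flox21 was left out (limma adjusted p = 0.0784, 0.0698, 0.0615 and 0.0641), and Rps27rt without cKO9 (0.0623).

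The groups did not overlap for 2 members that were higher in cKO (2.33%, against 1.32% of all genes) and 30 that were lower (34.9%, against 15.4%). The higher ones were Rpl41, at 1020 to 1062 FPKM in cKO and 917 to 1018 FPKM in Flox, and Rpl32, at 510 to 545 FPKM in cKO and 422 to 501 FPKM in Flox, with log2 fold changes of 0.13 and 0.14 (limma adjusted p = 0.307 and 0.31). Among the lower ones, Rpl31, which lies at the exit of the peptide tunnel, was at 137 to 139 FPKM in cKO and 152 to 185 FPKM in Flox, a log2 fold change of -0.31 (limma adjusted p = 0.0804). Rpl27a was at 169 to 199 FPKM in cKO and 202 to 244 FPKM in Flox (-0.32, limma adjusted p = 0.0755). The separation of these 32 genes was within 0.32 on the log2 scale, apart from Rps27 and Rps27rt. With single libraries left out the count of calls ran from 0 to 46 and was highest without Flox17. Without it, 1 member was higher and 45 were lower at an adjusted p under 0.05, with 333 of all genes higher and 6759 lower among 11821 tested, and the 3 libraries per group of the study's heatmaps, which leave out Flox17 and cKO8, gave 1 higher and 41 lower (1.16% and 47.7%, against 2.68% and 63.5% of all genes).

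The comparison of OE with Ctrl islets asked what added B7-H4 does in the β cells of mice on a high-fat diet. No member passed at an adjusted p under 0.05 (limma), with or without the fold change minimum, against 0.033% of the 12132 genes tested that were called higher and 0% lower. Before adjustment, p was under 0.05 for 0 of 85 members and 6.41% of all genes (limma). The median log2 fold change was 0.00 for the members, with 43 higher and 42 lower, and 0.44 for all genes tested, and 1 of the 85 members lay above the median of all genes. After median-of-ratios scaling the median of all genes was -0.02 and that of the members -0.57, with no member called, against 0.0495% of all genes higher and 0.0165% lower. The members thus stood below the typical gene by 0.43 without and 0.55 with that scaling, on the opposite side from the cKO comparison. The OE libraries lay close together and the Ctrl libraries far apart. The limma standard errors, which draw on the spread of all genes, were 0.39 for Rpl35 and 0.40 for Rps29 on the log2 scale. The differences themselves were -0.62 and 0.45.

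The members with the highest log2 fold changes in OE were Rps29, Rpl8, Rps27rt, Rps27 and Rplp2, and those with the lowest were Rpl35, Rps27l, Rps27a, Rpl22l1 and Rpl23. Rps29, a zinc-binding protein of the small subunit, was at 435, 431, 381 and 448 FPKM in OE1 to OE4 and at 292, 280, 240 and 468 FPKM in Ctrl1, Ctrl2, Ctrl3 and Ctrl5 (log2 fold change 0.45, limma adjusted p = 0.608). Of the Ctrl values only that of Ctrl5 was not below the OE range. Rpl35, next to the tunnel exit, was at 233 to 264 FPKM in OE and at 331, 317, 429 and 473 FPKM in Ctrl1, Ctrl2, Ctrl3 and Ctrl5, without overlap (-0.62, limma adjusted p = 0.591). Rps27l at 9.66 to 10.8 FPKM in OE and 11.997 to 18.2 FPKM in Ctrl, and Rpl23 at 109 to 118 FPKM in OE and 122 to 197 FPKM in Ctrl, did not overlap either. These 3 were the members lower in every OE library (3.53%, against 0.964% of all genes), and 0 were higher in every OE library (against 5.61%). Rpl35 and Rps27l had no overlap in OE against Ctrl but overlapped in cKO against Flox.

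The relation of each member to the acinar share was then fitted in each table with a term for the group, as a slope in log2 units per 10 percentage points of acinar share. No library is shared between the tables. The acinar share spanned only 3.57% to 4.48% in OE and 10.8% to 13.4% in cKO, so the slopes rest mainly on the Ctrl and the Flox libraries. In Ctrl they set Ctrl1 and Ctrl5, with low shares, against Ctrl2 and Ctrl3, with high ones, and the p-values of the slopes carry this limit. Among the cKO and Flox libraries, 2 of 86 members had a positive slope at an adjusted p under 0.05 (2.33%, against 2.16% of all genes) and 6 a negative one (6.98%, against 53.2%), and among the Ctrl and OE libraries 0 of 85 had a positive slope (0%, against 2.77%) and 42 a negative one (49.4%, against 90.7%). The median slope was -0.14 for the members and -0.69 for all genes in the first table, and -0.27 against -0.82 in the second. In the first, 85 of 86 members and in the second, 84 of 85 lay above the median of all genes. After median-of-ratios scaling the median of all genes was -0.01 and -0.02, and the split of calls turned to 21 positive and 0 negative in the first table (24.4%, against 2.87% of all genes positive and 0.712% negative) and 76 positive and 0 negative in the second (89.4%, against 14.6% positive and 9.78% negative). The members' values thus fell less with acinar share than those of most genes, by 0.55 in both tables, and whether they fell or rose in absolute terms depended on the scaling. Without a term for the group the first table gave 3 positive and 42 negative slopes among the 86 members, and 448 positive and 8311 negative among all 11804 genes. The count in that table was 2 to 16 when single libraries were left out, 16 without Flox16 and 2 to 5 without any other library, while in the second it was 73 without Ctrl1. The shares of all genes called with single libraries left out are not given here, so those counts are no result about the members.

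**Figure D3:**
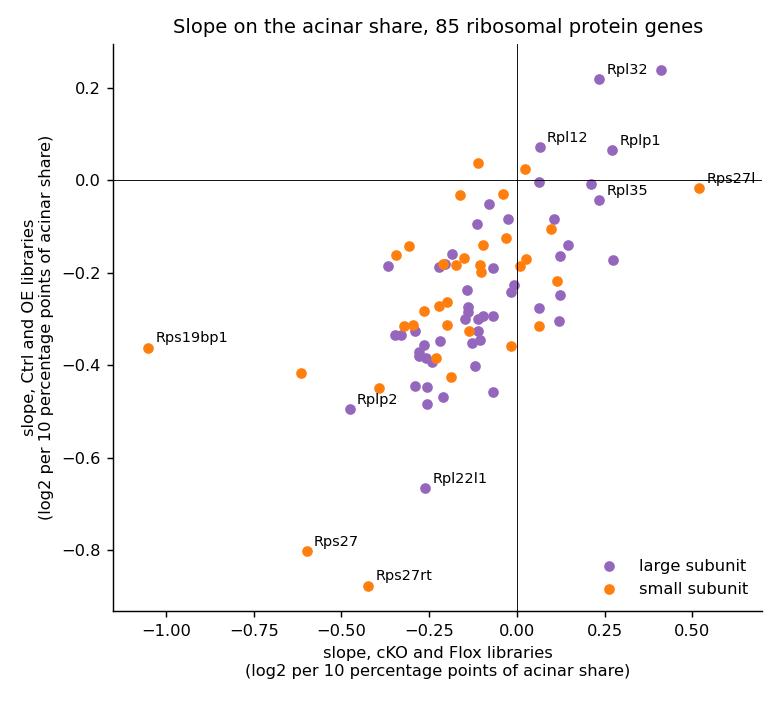
Slope on the acinar share (log2 per 10 percentage points) of each of the 85 genes that are members in both tables, in the cKO and Flox libraries (x axis) and the Ctrl and OE libraries (y axis), with large subunit genes in purple and small subunit genes in orange. Rps27 lies at -0.60 and -0.80 and Rpl32 at 0.23 and 0.22, and 63 of the 85 genes are negative in both.

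Across the 85 genes that were members in both tables the slopes had a Pearson correlation of 0.64, given as a description since the points share libraries within each table. In 63 of them both slopes were negative. Rps27 was among the lowest in both. In the cKO and Flox table its slope was -0.60 (standard error 0.14, limma adjusted p = 0.00986), and in the Ctrl and OE table, where it stood at 253, 119, 92.9 and 297 FPKM in Ctrl1, Ctrl2, Ctrl3 and Ctrl5 and at 202 to 245 FPKM in OE, it was -0.80 (standard error 0.09, limma adjusted p = 6.33e-05). The low Ctrl values were those of Ctrl2 and Ctrl3, the libraries rich in acinar RNA. Rps27rt had the lowest slope of the second table, -0.88 (limma adjusted p = 7.4e-05), with 9.68 and 6.24 FPKM in Ctrl2 and Ctrl3 and 20.9 and 24.8 FPKM in Ctrl1 and Ctrl5. After median-of-ratios scaling the slopes of Rps27 were 0.16 and 0.17, neither called, and that of Rps27rt 0.06. Rpl32, of the large subunit, stood near the other end. It was at 501, 497, 485 and 422 FPKM in the Flox libraries numbered 16, 17, 20 and 21, and at 364, 483, 623 and 498 FPKM in Ctrl1, Ctrl2, Ctrl3 and Ctrl5, with slopes of 0.23 and 0.22 (limma adjusted p = 0.152 and 0.0926). In Flox it was lowest in Flox21, the library with the lowest acinar share of that group, while Ctrl5, with the lowest share of all, was not low.

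To see which members moved against the rest of the ribosome, each library was divided by the geometric mean of its members, and the fit was repeated. This scaling centres the members' slopes by construction. The shares of all genes printed beside them therefore give no comparison of the members with other genes. Among the cKO and Flox libraries, 5 members, Rps27l, Rplp1, Rpl35 and Rpl32 among them, then had positive slopes at an adjusted p under 0.05 (5.81%, against 2.07% of all genes) and Rps27 and Rps19bp1 negative ones (2.33%, against 31.1%). Among the Ctrl and OE libraries, 5 members, Rpl32, Rpl12 and Rps28 among them, were positive (5.88%, against 3.45%) and Rps27, Rps27rt and Rpl22l1 negative (3.53%, against 76.2%). Rpl32 and Rps27 were among those called in the same direction in both tables. Their slopes relative to the members were 0.37 and 0.47 for Rpl32 (limma adjusted p = 0.0399 and 0.00682) and -0.47 and -0.55 for Rps27 (limma adjusted p = 0.0208 and 0.0039). Both kept their direction when any single library was left out. In the second table they also kept an adjusted p under 0.05 each time. In the first, Rps27 lost its call without Flox17, Flox20 or Flox21 (limma adjusted p = 0.0649, 0.0723 and 0.11) and Rpl32 without any one of cKO8, cKO9, cKO12, Flox17, Flox20 and Flox21 (0.0548 to 0.265).

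**Figure D4:**
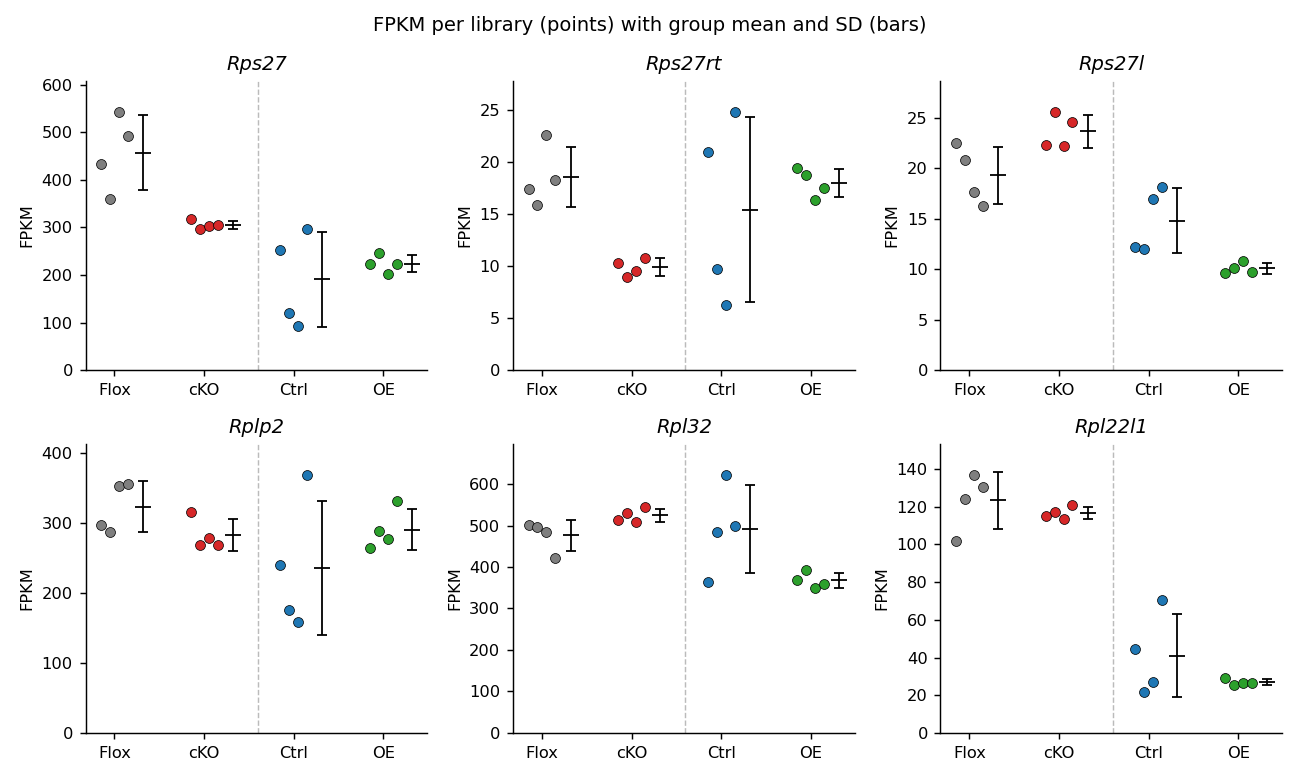
FPKM (y axis, from 0) of 6 members in the 4 groups, 1 point per library in replicate order, with the group mean and SD (n = 4) as bars to the right of the points. A dashed line separates the 2 tables, which were normalized separately. Rps27 is lower in every cKO than in every Flox library, and the Ctrl libraries of Rps27, Rps27rt, Rplp2 and Rpl22l1 spread widely.

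The ratio of Rps27l to Rps27 does not depend on the scaling of a library. It was 0.0518, 0.0578, 0.0325 and 0.0331 in Flox16, Flox17, Flox20 and Flox21, and 0.0703, 0.0864, 0.0735 and 0.0806 in cKO8, cKO9, cKO12 and cKO38. Every cKO library was above every Flox library, by 0.87 on the log2 scale (two-sided exact permutation test, p = 0.0286, the smallest that 4 against 4 allows, and 0.143 after Benjamini-Hochberg adjustment over 10 paralogue ratios). In the Ctrl and OE table it was 0.0480, 0.1004, 0.182 and 0.0611 in Ctrl1, Ctrl2, Ctrl3 and Ctrl5 and 0.0414 to 0.0536 in OE, a difference of -0.92 on the log2 scale (exact permutation p = 0.0571, adjusted 0.19). In both tables the highest ratios belonged to libraries with an acinar share over 10%. The part of the acinar share in the difference between cKO and Flox was not tested for this ratio. The ratio of Rpl22l1 to Rpl22, paralogues that bind the same RNA targets, was 4.04 to 4.60 in cKO and 3.05 to 4.56 in Flox (exact permutation p = 0.171), and 1.0003 to 1.26 in OE and 1.16 to 1.88 in Ctrl (exact permutation p = 0.171). The ratio of Rps27rt to Rps27 was 0.0303 to 0.0355 in cKO and 0.0371 to 0.0441 in Flox, without overlap and lower in cKO by a difference of -0.33 on the log2 scale (exact permutation p = 0.0286, adjusted 0.143), and 0.0766 to 0.0867 in OE and 0.0672 to 0.0834 in Ctrl (exact permutation p = 0.743). How the authors' counting divided the reads of this pair is not given. The ratios of Rpl36al to Rpl36a and of Rpl7l1 to Rpl7 overlapped between the groups in both tables (exact permutation p = 0.171 to 0.8).

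The stalk of the large subunit is built from Rplp0, Rplp1 and Rplp2, whose slopes were not tested against each other. Rplp1 was at 737 to 844 FPKM in cKO and 734 to 819 FPKM in Flox, with slopes of 0.27 and 0.06 (limma adjusted p = 0.12 and 0.574). Rplp2, which pairs with Rplp1, was at 268 to 316 FPKM in cKO and 287 to 356 FPKM in Flox, with slopes of -0.48 and -0.49 (limma adjusted p = 0.0135 and 0.0024). In the high-fat diet libraries Rplp2 was at 241, 176, 158 and 370 FPKM in Ctrl1, Ctrl2, Ctrl3 and Ctrl5, lowest in the libraries richest in acinar RNA, and at 264 to 332 FPKM in OE. After median-of-ratios scaling its slopes were 0.28 and 0.48, and relative to the members -0.34 and -0.24, with no call in either (limma adjusted p = 0.373 and 0.0646, and 0.0857 and 0.0841). Rplp0, which anchors both and was named here after its values were seen, had slopes of 0.21 and -0.01 (limma adjusted p = 0.271 and 0.95). Rps21, a small subunit protein, resembled Rplp2, with slopes of -0.39 and -0.45 (limma adjusted p = 0.0309 and 0.00282), which were 0.37 and 0.52 after median-of-ratios scaling. None of these differed between cKO and Flox or between OE and Ctrl at an adjusted p under 0.05.

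The summed FPKM of large subunit genes over that of small subunit genes separated the groups in both tables. The ratio was 1.51, 1.54, 1.51 and 1.51 in cKO8, cKO9, cKO12 and cKO38 and 1.46, 1.47, 1.39 and 1.38 in Flox16, Flox17, Flox20 and Flox21. It was 1.65, 1.68, 1.69 and 1.63 in Ctrl1, Ctrl2, Ctrl3 and Ctrl5 and 1.61 to 1.62 in OE. The group means differed by 0.0905 (cKO minus Flox) and by -0.0460 (OE minus Ctrl), and stayed between 0.0766 and 0.105 and between -0.0570 and -0.0363 when single libraries were left out. Within Flox and within Ctrl the higher ratios were those of the libraries with more acinar RNA, Flox16 and Flox17 against Flox20 and Flox21, and Ctrl2 and Ctrl3 against Ctrl1 and Ctrl5. OE libraries, with 3.57% to 4.48% acinar share, lay below Ctrl1 and Ctrl5, with 1.70% and 0.689%. The most abundant genes weigh most in these sums. Gene by gene, the median log2 fold changes of large and small subunit genes were -0.16 and -0.17 in cKO against Flox. In OE against Ctrl they were -0.01 and 0.09. No test was made of this sum over the members.

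**Figure D5:**
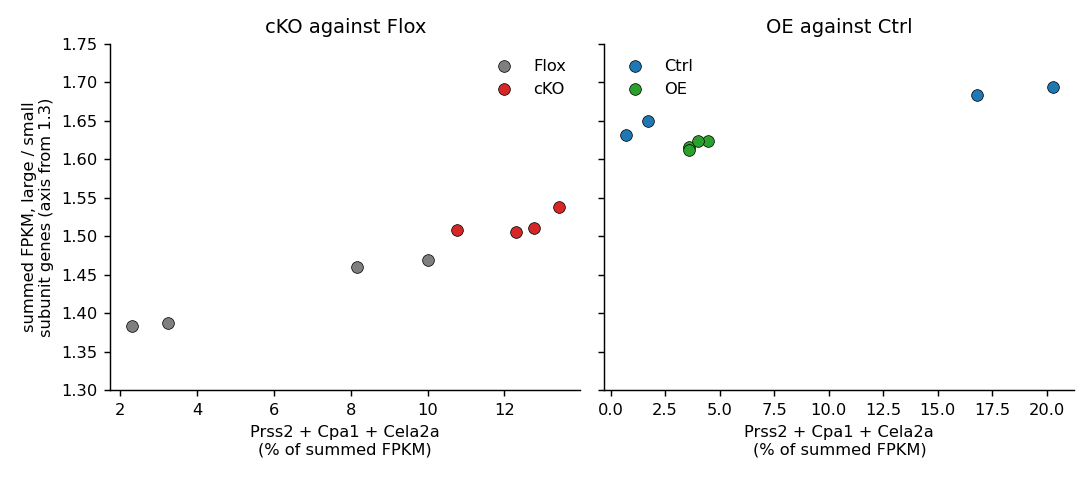
Ratio of the summed FPKM of large to small subunit genes (y axis, drawn from 1.3) against the acinar share (%, x axis), 1 point per library, for cKO and Flox (left) and Ctrl and OE (right). The cKO libraries lie at 1.51 to 1.54 above the Flox libraries at 1.38 to 1.47, and the OE libraries at 1.61 to 1.62 below the Ctrl libraries at 1.63 to 1.69.

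Single members varied less over the libraries than other genes, most of which stood at much lower levels. Genes of like level were not compared. The distance between the highest and the lowest library of a table had a median of 0.37 on the log2 scale for the members and 0.90 for all genes in the cKO and Flox table, and 0.83 against 1.98 in the Ctrl and OE table. It was below 1 for 83 of 86 members (and 62.6% of all genes) in the first and for 64 of 85 (and 6.89%) in the second. The widest was that of Rps27rt in both, 1.29 and 1.91. Pairs of members had a median correlation of 0.66 and 0.75 over the 8 libraries of a table, which all pairs share. The genes outside the rule most like the mean of the members were Fau (r = 0.99 and 0.90 over 8 libraries each), which encodes the small subunit protein Rps30 fused to a ubiquitin-like protein, then Fxyd5, Ackr3, Vamp8 and Naca, part of the complex that meets nascent chains on the ribosome. Of the properties read from the coding sequences of 83 members, the content of G and C had a Pearson correlation of 0.29 with the slopes relative to the members in the Ctrl and OE table and -0.06 in the cKO and Flox table, and the coding length of 0.17 and 0.04. These are descriptions over genes that share all libraries.

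Lists of other genes of translation and ribosome production were set beside the members, without a test of a difference from them. In cKO against Flox, 6 of 29 initiation factor genes and 7 of 30 ribosome biogenesis genes fell and none rose, beside 12.8% of all genes lower, with medians of -0.33 and -0.43, which were 0.05 and -0.10 after median-of-ratios scaling. Examples were Eif4e, the cap-binding protein, from 8.95 ± 2.63 FPKM in Flox to 4.94 ± 0.401 FPKM in cKO (SD, n = 4, log2 fold change -0.75, limma adjusted p = 0.0315), and Gnl3, nucleostemin, from 19.4 ± 4.52 to 10.8 ± 1.68 FPKM (SD, n = 4, -0.80, limma adjusted p = 0.0223). Both had negative slopes on the acinar share, -1.03 and -0.94 (limma adjusted p = 0.011 and 0.00848). Flox17, the Flox library with the highest acinar share, had 5.33 FPKM of Eif4e and 13.2 FPKM of Gnl3. With the acinar share as a covariate, which cannot be told apart from genotype here, no gene passed. None of 7 elongation factors, 11 RNA polymerase I subunits and cofactors, 15 mTORC1 and Myc regulators and 78 mitochondrial ribosomal protein genes passed, and 2 of 18 genes of the signal recognition particle and translocon fell, a share close to that of all genes. Medians of these lists lay between -0.11 and -0.32, beside -0.34 for all genes (0.07 to 0.28 after median-of-ratios scaling). In OE against Ctrl no gene of these lists passed, with medians between 0.12 and 0.54. On the acinar share the median slopes of the elongation factors, -0.29 and -0.27, were nearest to those of the members among these lists. Those of mitochondrial ribosomal proteins were -0.54 and -0.68 and those of biogenesis factors -0.85 and -0.64, with 75 of 78 and 27 of 30 called negative in the Ctrl and OE table, beside 90.7% of all genes.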

How the data were processed

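Islet RNA was sequenced on an Illumina NovaSeq. The authors calculated FPKM and deposited 1 table for the cKO and Flox libraries and 1 for the Ctrl and OE libraries. The submitters' processing notes name the build mm10, and the aligner and counting tool are not given in the sources used here. FPKM values are relative to the other RNA of a library, so a larger acinar part lowers the remaining values together. Read totals are unknown and no counting intervals are given. The tables list no mitochondrially encoded genes.

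Samples were grouped by their labels. Genes averaging 0.5 FPKM or more were tested on log2(FPKM + 0.5) within each table in R 4.3.3 with limma 3.58.1 (empirical Bayes with trend and robust fitting, two-sided, Benjamini-Hochberg adjustment over all genes tested). The value added before the logarithm understates the change of low genes. Calls used an adjusted p under 0.05, with and without an absolute log2 fold change over 1, the study's thresholds. Slopes used the acinar share and the group as terms. On simulated data 187 of 200 genes changed between the groups were recovered with 6 false calls at the spread of the 11804 cKO and Flox genes, and 0 of 200 at that of the 12132 Ctrl and OE genes, or 198 where the simulated spread was that of OE only. For the slopes 200 and 198 of 200 were recovered, with 10 and 9 false calls. The slope check used a spread well below that of the data, and covariate values drawn at random in place of the acinar shares. It therefore does not show what part of such slopes would be found in these data. The shift given to the 200 genes of the group check is not stated here. Recovery of differences the size of those of the members (log2 fold changes of -0.86 to 0.36 in cKO against Flox) was not tested. Paralogue ratios were compared by exact permutation.

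The members, lists and tests were chosen with earlier results of these data known. Named members are the 5 highest and lowest by mean and by log2 fold change, the 3 highest and lowest slopes, and the paralogues, apart from members chosen by a call in the text. Some members and 1 short list are not reported here. Alternatives were pseudocounts of 1 and 0.1, every gene above 0 FPKM, a minimum mean of 1 FPKM, median-of-ratios scaling (each library divided by the median ratio of its genes to their geometric mean), a plain empirical Bayes fit, a block for the replicate number, the acinar share as covariate, its log2, no group term, 3 libraries per group, and each library left out. Scaling to the members was added after the data were seen. Promoters were RefSeq's (GRCm38.p6) and coding sequences GENCODE M21's, read in Python 3.11.15.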

Additional observations from a re-analysis of the deposited data

Results flagged for a closer look

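Within groups of 4 libraries, 1 library stood apart from the other three in 5 of 114 values examined (Dixon's test at its 95% critical value), and chance alone gives about 1 in 20. The ratio of large to small subunit genes was 1.54 in cKO9 and 1.51 in each of the other cKO libraries. Rps27a, whose gene encodes ubiquitin fused to a small subunit protein, was at 157 FPKM in Flox17 and 240 to 256 FPKM in the other Flox libraries. It also stood apart in OE3, with 145 FPKM against 91.3 to 100.4 FPKM in the other OE libraries. Rps15a was at 29.2 FPKM in Ctrl5 and 15.8 to 17.0 FPKM in the other Ctrl libraries. Rps23 was at 541 FPKM in OE2 and 501 to 506 FPKM in the other OE libraries. Their causes were not tested.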

How the results depend on the processing

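Depth in reads is unknown, so counting error could not be separated from the spread between libraries. The 2 members under an adjusted p of 0.05 in cKO against Flox became 0 with every gene above 0 FPKM tested, with median-of-ratios scaling and with the acinar share as covariate (in the first and last of these 0 of all genes passed), 1 with scaling to the members, 42 with 3 libraries per group, and 0 to 46 when single libraries were left out. In OE against Ctrl the covariate gave 1 member in place of 0. The 8 members with a slope in the cKO and Flox table became 21 with median-of-ratios scaling (24.4%, against 2.87% of all genes positive and 0.712% negative). They became 4 without trend and robust fitting, 4 with the log2 of the share, 45 without a group term, and 2 to 16 when single libraries were left out. The 42 in the Ctrl and OE table (49.4%, against 90.7% of all genes negative) became 76 with median-of-ratios scaling (89.4%, against 14.6% of all genes positive and 9.78% negative). They became 8 with scaling to the members, and 28 to 73 when single libraries were left out. Counts printed without the share of all genes in the same setting are no result about the members.

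The members' median relative to all genes in cKO against Flox (0.18) turned to -0.16 with the covariate and was 0.11 to 0.25 with single libraries left out. In OE against Ctrl (-0.43) it was then -0.67 to -0.15. The difference in the members' share, -0.40 percentage points in cKO, turned to 0.646 outside acinar markers and was -0.175 outside acinar markers and hormones, and -0.538 to -0.311 with single libraries left out. In OE it was 0.0519, and turned to -1.88 and -0.725 in the same way and to -0.157 without Ctrl2 and -0.159 without Ctrl3 (-0.159 to 0.473 over all libraries left out). The ratio of large to small subunit genes differed by 0.0766 to 0.105 in cKO and by -0.0570 to -0.0363 in OE.

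With median-of-ratios scaling nearly every negative slope became positive, from 65 negative members to 1 in the cKO and Flox table and from 79 to 0 in the Ctrl and OE table. Examples were Rps27 in the cKO and Flox table (0.16) and, in the Ctrl and OE table, Rpl22 (0.62), Rpl22l1 (0.30), Rpl36al (0.64), Rpl7 (0.67), Rpl7l1 (0.61), Rplp2 (0.48), Rps19bp1 (0.55), Rps23 (0.71), Rps27 (0.17), Rps27a (0.55), Rps27rt (0.0597) and Rps29 (0.66). The causes of these changes were not tested. Replicate numbers in the labels are shared between groups, but same-numbered libraries did not all deviate together, so they were not taken as pairs, and with the replicate number as a block 2 members still fell in cKO and 0 passed in OE. In that cKO fit 289 of the 11804 genes tested were higher and 2455 lower. The planned correlation of the shares across libraries was not run because the acinar shares fall into separate clusters.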

Other observations

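Levels of single members also differed between the tables, which were normalized separately and differ in diet, virus and mice, so these are values only. Rpl22l1 had a mean of 120.1 FPKM over the cKO and Flox libraries and 34.0 FPKM over the Ctrl and OE libraries, and its highest Ctrl or OE value, 70.8 FPKM, was below its lowest cKO or Flox value, 102 FPKM. Rpl39 stood at 216 and 96.8 FPKM and Rps19 at 168 and 99.3 FPKM. In the other direction, Rpl28 stood at 292 and 476 FPKM, Rps26 at 268 and 419 FPKM and Rps15 at 294 and 451 FPKM. These genes were named after their values were seen.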
